A study of Mus musculus with 8 samples.

Results

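Short fragments of mitochondrial RNAs were followed in 8 small-RNA libraries of NIH-3T3, a mouse embryonic fibroblast cell line that divides without limit and stops when crowded or starved. A fragment was counted when an insert of 18 to 30 nt matched no miRNA hairpin and matched, perfectly and on the sense strand, a transcript of the 37 genes that the annotation places on the mitochondrial chromosome, out of 55341 annotated genes. The rule used position and sequence and no measured level. All 37 genes had at least 1 read: 2 rRNA genes, 22 tRNA genes and 13 mRNA genes, with 5390 reads of 621 distinct inserts in total.

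The cells were grown in medium with 10% serum. In the serum experiment they were starved of serum for 48 h, 20% serum was added, and cells were taken at 0 h (labelled G0), 12 h (G1), 16 h (S), 20 h (G2/M) and 24 h (G1). In the contact experiment cells were plated at 12% confluency and taken at day 0 (asynchronous), day 3 and day 5 (both labelled G0). Each condition was 1 library of this 1 line, so differences between single conditions have no replicate check, and the tests below set the 3 G0 libraries against the other 5.

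Mitochondria carry a small circular genome that encodes the RNA of their own ribosome, the tRNAs that this ribosome needs and a few subunits of the respiratory chain and ATP synthase. Both strands are transcribed into long precursors in which tRNAs sit between the rRNAs and mRNAs, and cutting at both ends of each tRNA releases its neighbours. The CCA that carries the amino acid is not encoded and is added to each tRNA after cutting, and rRNAs and most mRNAs receive added A at their 3′ ends.

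The kept reads (inserts of 18 to 30 nt without marker oligonucleotides) numbered 201069 to 1179078 per serum library and 445993 to 590885 per contact library. The 2 experiments stood apart before any mitochondrial read was counted: marker oligonucleotides took 58.3% to 89.1% of the reads in the serum files and at most 0.0352% in the contact files. Among mitochondrial reads, the serum libraries also held fewer distinct inserts, at 7.12 to 78.7 reads per distinct insert against 2.08 to 2.55 in the contact libraries. Over all kept reads this was not general. There 24 h had 18536 distinct inserts in 201069 reads, more per read than day 5 with 43749 in 590885. The 551 mitochondrial reads at 12 h were only 7 distinct inserts with 30 or more reads each, and the 936 reads at 0 h were 37 distinct inserts, whereas day 3 had 207 distinct inserts in 430 reads. Intervals below are 95% intervals that cover counting error only. Reads carry no molecular identifiers, so copies of 1 molecule cannot be separated, and the intervals leave out this source of error. Of the 7 fibroblast or mesenchymal miRNA hairpins listed as markers all 7 were detected, with a sum of 72288 to 342893 per 1000000 hairpin reads. Of the epithelial hairpins 4 of 5 had reads (Mir429 had 0), with a sum of 2614 per 1000000 at 0 h and 0 to 10.9 in the other 7 libraries. The blood hairpins (3 of 3) summed to 525 per 1000000 at 0 h and 0 to 21.2 elsewhere, and the pluripotent hairpins (4 of 6, with Mir302a and Mir302b at 0) to 757 at 12 h and 0 to 199 elsewhere. The part of other cells' RNA in the serum 0 h and 12 h values was not tested.

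The commonest fragments are shown first, because most results turn on where they begin and end. Capitals mark the commonest insert with that 5′ end, and lower case gives neighbouring bases of the same transcript. Sequences are those of GENCODE M21 on build GRCm38, written 5′ to 3′ as DNA letters. Fragments of the 16S rRNA mt-Rnr2 lay at its first base (chrM:1094-1118, plus strand), at its last base (chrM:2649-2675) and in its middle (chrM:1819-1836). The 12S rRNA mt-Rnr1 fragment lay at its first base (chrM:70-88).
mt-Rnr2 from base 1: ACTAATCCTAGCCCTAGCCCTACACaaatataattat
mt-Rnr2 from base 1556 to the last base: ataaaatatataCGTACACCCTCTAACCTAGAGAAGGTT
mt-Rnr2 from base 726: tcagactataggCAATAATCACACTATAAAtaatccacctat
mt-Rnr1 from base 1: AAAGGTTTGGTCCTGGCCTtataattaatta

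Among tRNA reads that match the gene exactly, the leading fragments began at the first base of the tRNA. The whole tRNAs are shown for leucine mt-Tl1 (chrM:2676-2750, plus strand, directly after mt-Rnr2), serine mt-Ts2 (chrM:11613-11671, plus strand), serine mt-Ts1 (chrM:6870-6938, minus strand), phenylalanine mt-Tf (chrM:1-68, plus strand) and proline mt-Tp (chrM:15356-15422, minus strand).
mt-Tl1 from base 1: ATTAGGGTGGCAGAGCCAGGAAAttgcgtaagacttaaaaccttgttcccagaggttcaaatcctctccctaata
mt-Ts2 from base 1: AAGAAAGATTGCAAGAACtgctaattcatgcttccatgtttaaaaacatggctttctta
mt-Ts1 from base 1: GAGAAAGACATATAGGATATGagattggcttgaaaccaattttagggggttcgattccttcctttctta
mt-Tf from base 1: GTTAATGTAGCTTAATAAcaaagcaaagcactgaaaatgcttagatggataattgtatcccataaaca
mt-Tp from base 1: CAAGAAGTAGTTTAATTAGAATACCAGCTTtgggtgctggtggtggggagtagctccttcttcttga

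Mitochondrial fragments were a small share of every library. They made up 0.258%, 0.193%, 0.161%, 0.250% and 0.199% of kept reads at 0, 12, 16, 20 and 24 h of the serum experiment, and 0.0491%, 0.0773% and 0.0489% at days 0, 3 and 5 of the contact experiment. Every serum library was above every contact library, and the lowest serum share was 2.09 times the highest contact share. Over reads scaled by TMM, edgeR's correction for composition, that ratio was 1.24. Counted as distinct inserts over the distinct inserts that match any annotated transcript, the groups overlapped, at 0.888% to 3.12% in the serum and 1.95% to 3.59% in the contact libraries. Experiment, library preparation and sequencing depth cannot be told apart here.

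**Figure D1:**
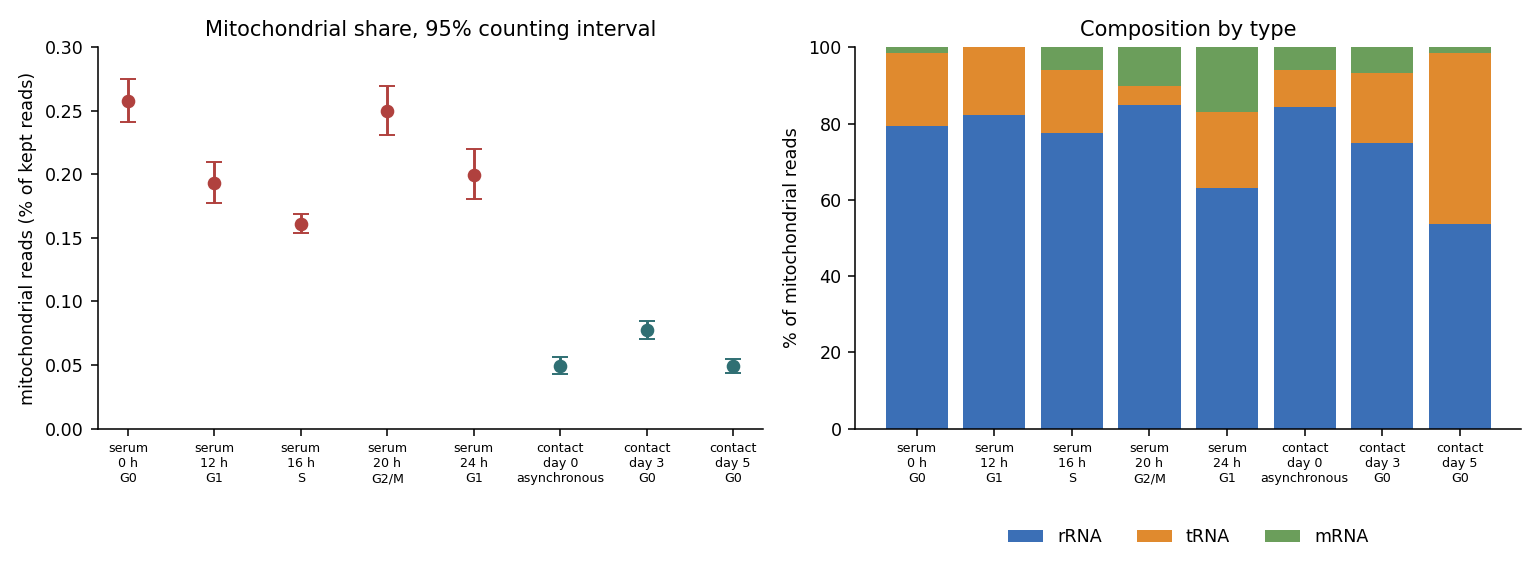
Left, mitochondrial reads as a percentage of kept reads in each of the 8 libraries (points) with exact 95% binomial intervals; right, the same reads divided into rRNA, tRNA and mRNA as stacked percentages. The serum libraries (red) sit between 0.161% and 0.258% and the contact libraries (green) between 0.0489% and 0.0773%, and rRNA is the widest band in every library. Reads of tRNAs that end in an added C, CC or CCA are left out.

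Among reads that match the gene exactly, ribosomal RNA gave most of the fragments. The other values of this paragraph leave out tRNA reads that end in an added C, CC or CCA (CCA-ended reads, described below). With those added, tRNA was 58.3%, 54.1% and 55.6% of mitochondrial reads at 0 h, 16 h and day 5, and 25.9% to 37.5% elsewhere. Without them the rRNA part of mitochondrial reads was lowest at day 5 (53.6%), had 7 libraries between 63.1% and 84.8%, and was highest at 20 h. Per kilobase of gene the rRNAs reached 103 to 835 reads per 1000000 kept reads (rpm), the tRNAs 31.4 to 328 and the mRNAs 0 to 29.7. The order by length-scaled level was thus rRNA, tRNA, mRNA in 7 of 8 libraries, with tRNA above rRNA at day 5 (147 against 103). That order is of reads without the CCA-ended ones. With them tRNA was most of the mitochondrial reads at 0 h, 16 h and day 5. The tRNA genes sum to 1501 nt and the rRNA genes to 2537 nt. At least in these libraries tRNA then exceeded rRNA per kilobase. At 24 h the mRNA part was at its highest, 17.0% of mitochondrial reads (95% interval 13.4% to 21%), and at 12 h no mRNA read was seen among 551.

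The 16S rRNA mt-Rnr2 was the leading gene everywhere, with a mean of 62.4% of the mitochondrial reads that match the gene exactly. This share leaves out CCA-ended tRNA reads and would be lower with them. For mt-Rnr2 the levels below do not depend on them. The level of mt-Rnr2 was 1539, 1440, 1136, 1870 and 965 rpm at 0, 12, 16, 20 and 24 h and 370, 435 and 193 rpm at days 0, 3 and 5. The serum and contact values did not overlap, and the released libraries differed among themselves by up to 1.94 times (1.64 to 2.30). The 12S rRNA mt-Rnr1 followed, with 504, 147, 113, 249 and 293 rpm in the serum libraries and 44.8, 144 and 69.4 rpm in the contact libraries. Here the groups overlapped, since day 3 was above 16 h and close to 12 h. Per kilobase the mean over libraries was 628 rpm for mt-Rnr2 and 205 rpm for mt-Rnr1, the other rRNA of the same ribosome.

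Most reads of mt-Rnr2 came from a few positions in the gene. Shares of mitochondrial reads in this paragraph leave out CCA-ended tRNA reads. A single 5′ end, base 1, held 36.7% ± 10.7 of all mitochondrial reads (SD, n = 8 libraries), with 283, 205, 718, 318 and 126 reads at 0, 12, 16, 20 and 24 h and 122, 136 and 63 reads at days 0, 3 and 5. It was the only 5′ end of mt-Rnr2 present in all 8 libraries with 63 or more reads in each. Its length was not fixed at the other end: 18 to 30 nt occurred, the commonest was 24 or 25 nt in every library, and 53.7% to 82.5% of these reads were 23 to 25 nt long. The second cluster ran to the last base of the gene. These reads began mostly at bases 1555, 1556 and 1557, so their length was 28, 27 or 26 nt, and they numbered 37, 206, 176, 46, 28, 10, 10 and 7 in the order above. At 12 h this cluster was 37.4% of mitochondrial reads, against 2.33% to 9.26% in the other 7 libraries; those 206 reads were 2 distinct inserts. At 0 h it consisted of 1 length, 26 nt, while 27 or 28 nt made up 76.1% to 100% of it elsewhere. Reads of this end that went on by 1 base are left out of the cluster. They numbered 16, 127, 255, 46, 23, 15, 9 and 3 in the same order, more than the cluster itself at 16 h and day 0. The cluster's shares and lengths hold only for reads that stop at the last base. Reads that began at base 726 were 18 to 24 nt long, most often 18 nt, and numbered 152 at 0 h, 209 at 16 h, 78 at 20 h, 1 at day 5 and none in the other 4 libraries.

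**Figure D2:**
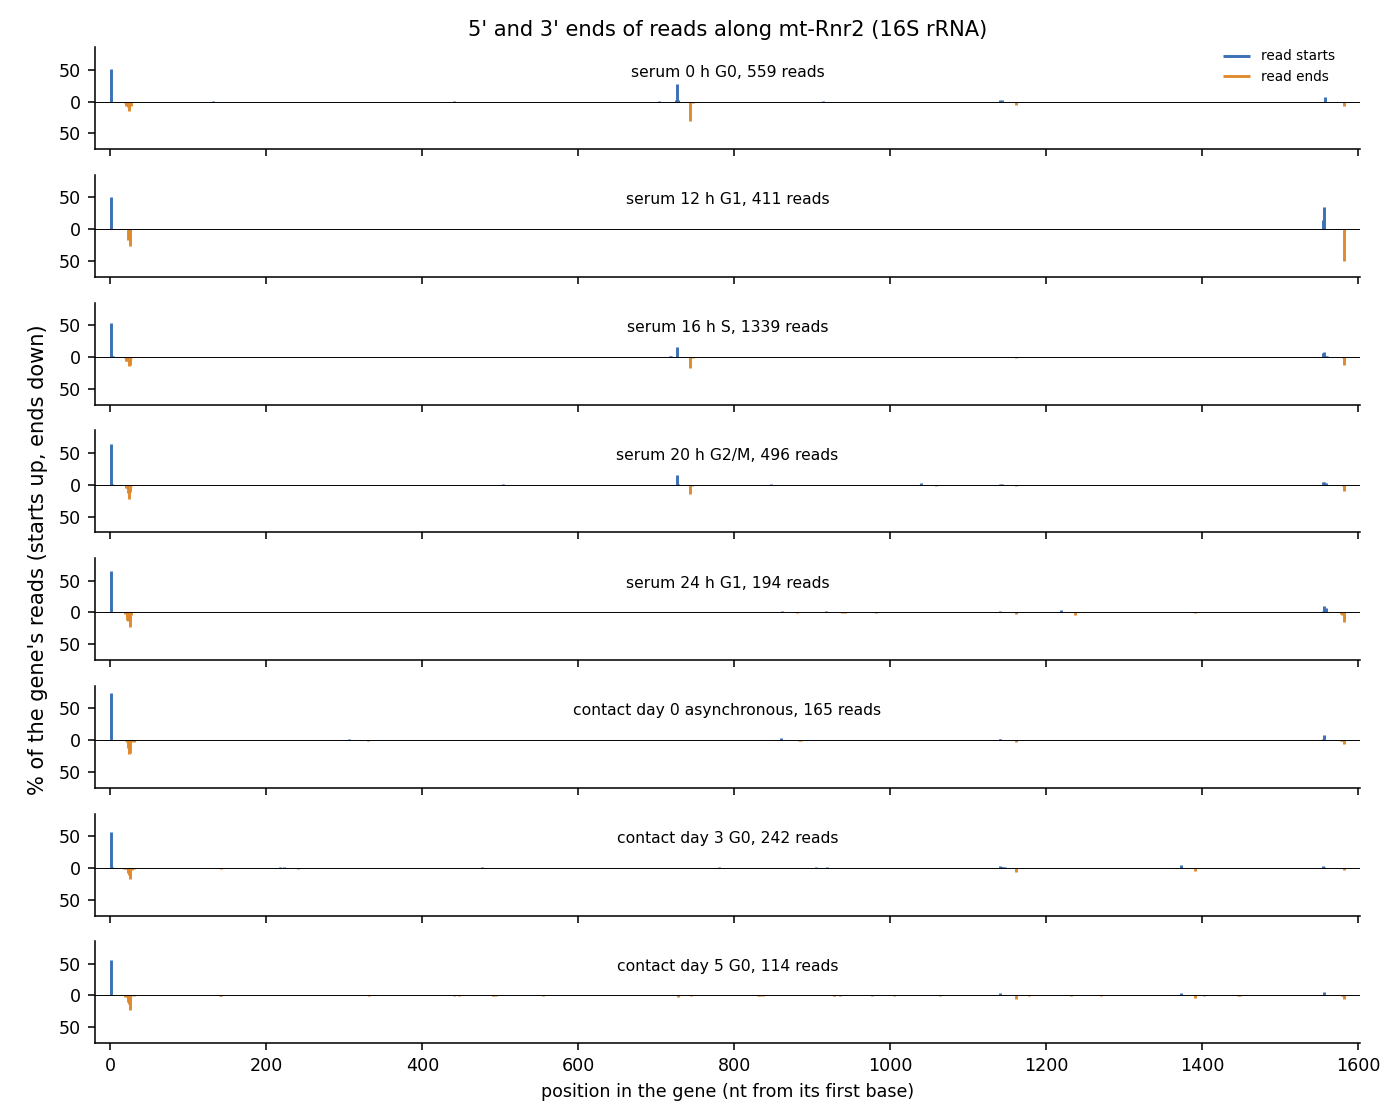
Position of read 5′ ends (blue, upward) and 3′ ends (orange, downward) along mt-Rnr2, in nt from its first base, as a percentage of the gene's reads in each of the 8 libraries. Starts pile up at base 1 in every panel, the ends at the last base (1582) are largest at 12 h, and the spike at 726 to 743 appears at 0, 16 and 20 h.

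The 12S rRNA behaved differently at its ends. Base 1 of mt-Rnr1 was the start of 67, 0, 20, 14 and 7 reads in the serum libraries and 7, 38 and 26 reads in the contact libraries, or 28.7% of the gene's 624 reads. The remaining 71.3% were internal, and none ended at its last or last but one base without added bases. At 12 h all 42 reads of mt-Rnr1 were a single 20-nt insert from base 137 (chrM:206-225), which was seen in no other library. Counted over all libraries, reads covered 89.9% of the bases of mt-Rnr1 and 75.3% of those of mt-Rnr2.

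Among reads that match the gene exactly, starting at the first base was common to rRNA and tRNA fragments. Reads that began at base 1 or 2 of their gene were 52.2% to 69.9% of mitochondrial reads, with a mean of 59.2% ± 6.25 (SD, n = 8 libraries). For comparison, the same share among reads of snoRNAs, nuclear RNAs that are also trimmed to defined ends, was 16.1% ± 7.77. The mitochondrial share was higher in 8 of 8 libraries, by 43.1 ± 10.2 percentage points (exact sign-flip permutation test over libraries, 2-sided p = 0.00781, the smallest this design allows). This comparison was added after the data had been seen. The counting rule leaves out 3119 CCA-ended tRNA reads, which start inside the gene, and this raises the mitochondrial share. No such reads were left out for snoRNAs, and the difference was not tested with the CCA-ended reads included. A single 5′ end, base 1 of mt-Rnr2, held 36.7% of mitochondrial reads. Of the tRNA reads that match the gene, 64.6% to 100% began at base 1 or 2 (804 of 935 reads). When the CCA-ended reads are added, they make up 34.7% to 84.5% of a library's tRNA reads. Among rRNA reads 45.3% to 69.7% began at base 1 or 2, and among mRNA reads 74 of 311.

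Mitochondrial fragments did not have the length of miRNAs. Their median was 20 to 25 nt according to library, and 24.0% to 47.9% were 21 to 23 nt long. Reads of miRNA hairpins in the same libraries had a median of 22 nt, with 86.5% to 92.1% at 21 to 23 nt. The commonest mitochondrial length was 18 nt in 3 libraries, the shortest length kept, so shorter fragments outside the window were not counted.

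**Figure D3:**
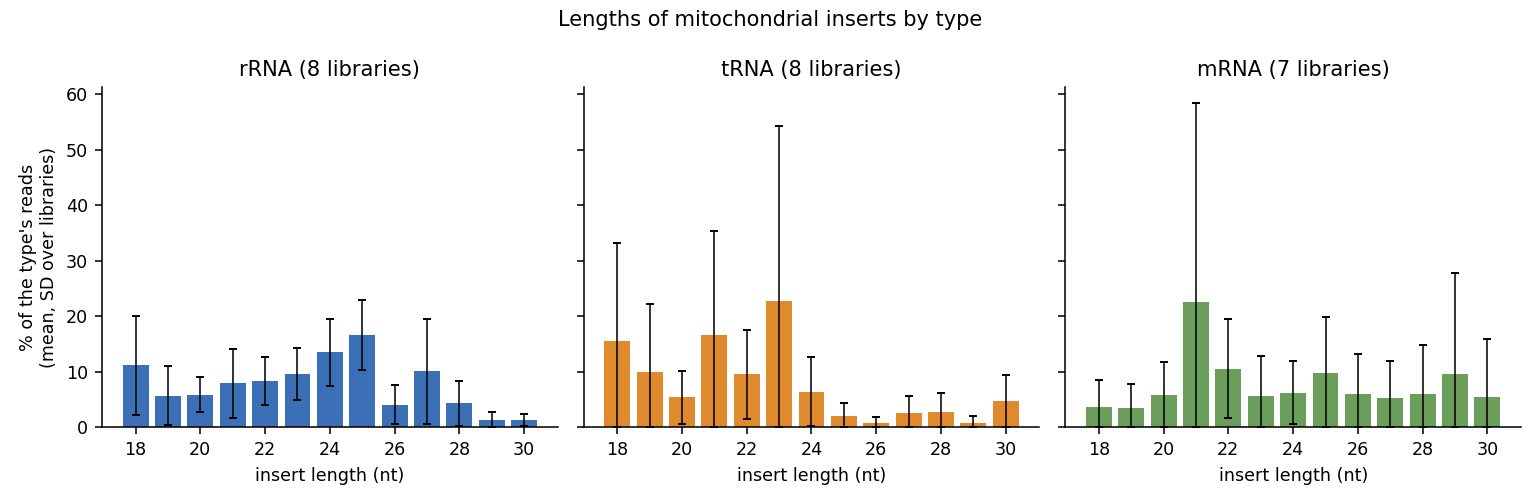
Percentage of rRNA, tRNA and mRNA fragment reads at each insert length from 18 to 30 nt; bars are means and whiskers 1 SD over the libraries with reads of that type (8, 8 and 7), cut at 0. The rRNA bars are highest at 25 nt, and the whiskers are widest at 23 nt for tRNA and 21 nt for mRNA.

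Fragments of tRNAs that match the gene exactly, the only ones counted here, were led by different genes in different libraries. The leucine tRNA mt-Tl1 was the only tRNA with such reads in all 8 libraries. It had 16, 98, 19, 2 and 34 reads in the serum libraries and 2, 14 and 18 in the contact libraries. The 98 reads at 12 h were 1 insert of 23 nt and were all the tRNA reads of that library. The serine tRNA mt-Ts2, which has a shortened cloverleaf, had 157, 0, 48.3, 26.4 and 34.8 rpm in the serum libraries and 8.97, 39.5 and 88.0 rpm in the contact libraries. Its level at 0 h was above the 4 released libraries, and days 3 and 5 were above day 0. The other serine tRNA, mt-Ts1, had its lowest non-zero level at 0 h (8.26 rpm) and its highest at 24 h (104 rpm). The phenylalanine tRNA mt-Tf had 64 reads at 0 h, all 1 insert, 36 at 16 h, none at 12, 20 and 24 h and 3 to 8 in the contact libraries. The proline tRNA mt-Tp had 13 reads at 0 h, 66 at 16 h, 1 at 24 h and 2 to 10 in the contact libraries. The other 17 tRNA genes had 1 to 32 reads over all 8 libraries together.

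**Figure D4:**
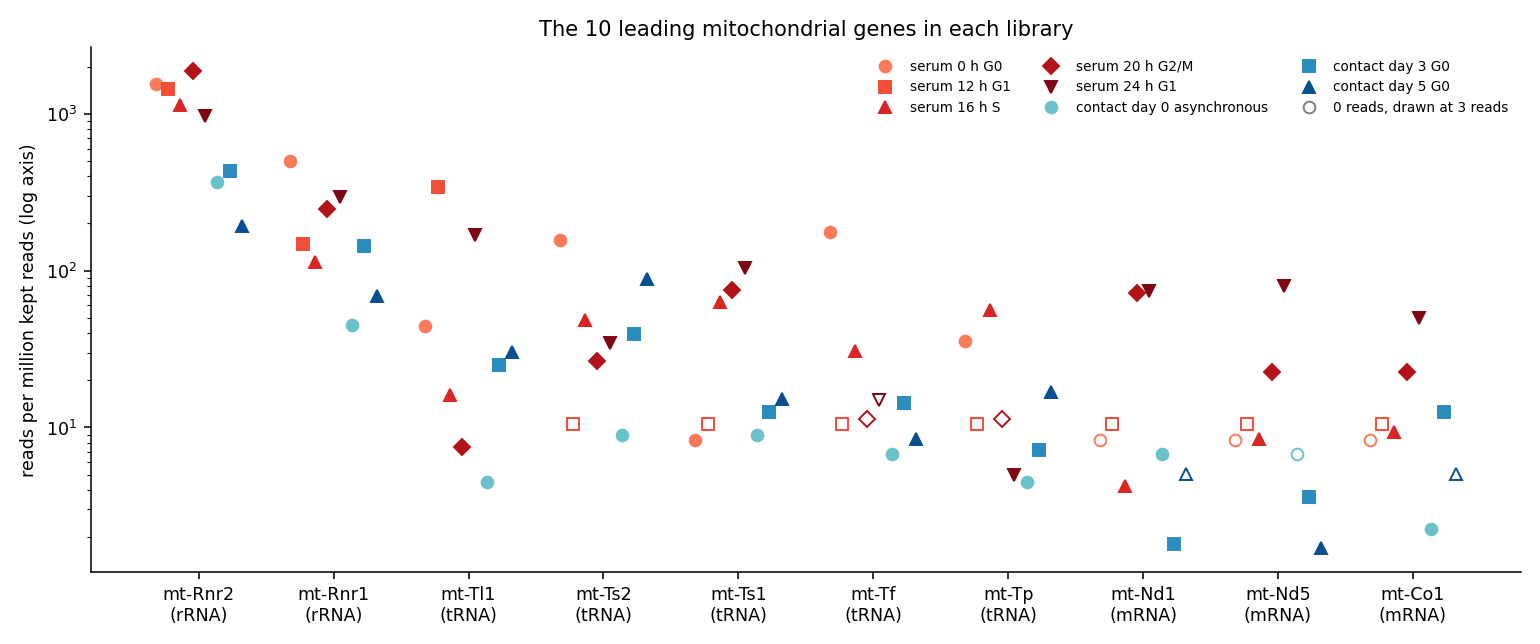
Level of the 10 mitochondrial genes with the highest mean share of mitochondrial reads, in rpm on a log axis, 1 symbol per library; open symbols mark 0 reads and are drawn at the level of 3 reads. mt-Rnr2 lies between 193 and 1870 rpm with serum libraries above contact libraries, and the open symbols cluster in the tRNA and mRNA columns, most of all for serum 12 h.

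Matching the gene exactly leaves out the 3′ ends of mature tRNAs, because the CCA is not encoded. Reads that ran to the last base of a tRNA and went on with an added C, CC or CCA numbered 881, 174, 1554, 186 and 77 in the serum libraries and 63, 115 and 69 in the contact libraries, 3119 in all, from 22 of 22 tRNA genes. The full CCA was present in 90.4% to 100% of them, whereas only 8 reads ended at the last or last but one encoded base. These reads lie outside the 5390 above. Beside them the tRNAs' order was different. The phenylalanine tRNA mt-Tf led with 1117 such reads and 116 that matched the gene, followed by arginine mt-Tr (625 and 4), tryptophan mt-Tw (574 and 9), alanine mt-Ta (192 and 4) and glycine mt-Tg (149 and 3). The leaders among 5′ fragments had few: mt-Tl1 had 9 and 203, mt-Ts2 23 and 206, and mt-Ts1 9 and 138. For 14 of the 22 tRNAs the CCA-ended reads were the more numerous kind. The commonest CCA-ended insert of 4 tRNAs is shown in capitals, with the added bases at the end.
mt-Tf with added CCA: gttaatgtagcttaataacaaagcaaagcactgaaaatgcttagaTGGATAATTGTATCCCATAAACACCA
mt-Tr with added CCA: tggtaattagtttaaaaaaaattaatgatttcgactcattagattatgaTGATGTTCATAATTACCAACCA
mt-Tw with added CCA: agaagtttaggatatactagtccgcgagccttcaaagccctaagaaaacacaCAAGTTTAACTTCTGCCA
mt-Tg with added CCA: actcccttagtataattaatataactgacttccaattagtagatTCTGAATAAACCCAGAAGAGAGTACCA

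**Figure D5:**
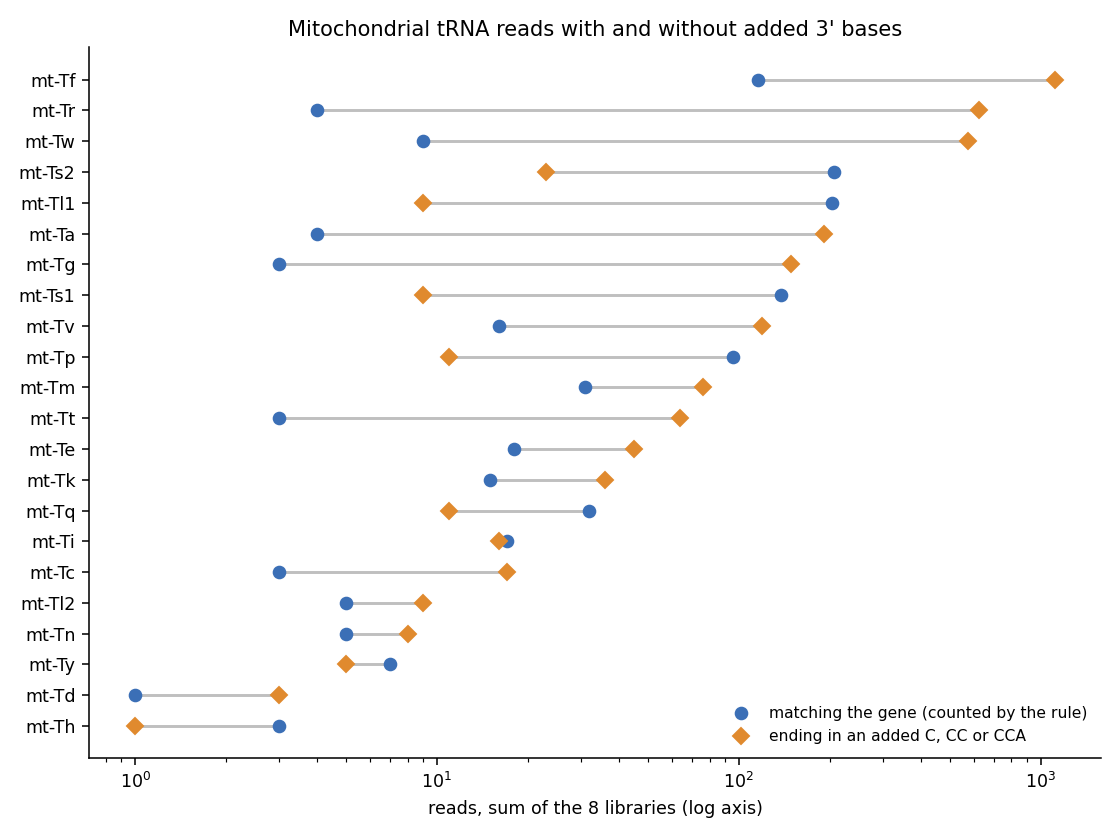
For each of the 22 mitochondrial tRNA genes, reads matching the gene (blue circles) and reads ending in an added C, CC or CCA (orange diamonds), summed over the 8 libraries, on a log axis. mt-Tf, mt-Tr and mt-Tw stand out by CCA-ended reads (1117, 625 and 574), and mt-Ts2, mt-Tl1 and mt-Ts1 by reads matching the gene (206, 203 and 138).

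At 0 h the CCA-ended reads were at 2426 rpm, above each released library (383 to 1318 rpm), by 1.84 times (1.69 to 2.00) over 16 h and 6.34 times (5.01 to 8.10) over 24 h. They were 17, 2, 102, 25 and 9 distinct inserts at 0, 12, 16, 20 and 24 h. The intervals leave out the error from such repeated inserts. In the contact experiment day 3 was 1.46 times day 0 (1.07 to 2.02) and day 5 was 0.827 times day 0 (0.579 to 1.18). Over all 8 libraries the pooled difference between G0 and other libraries was within their spread (log2 difference -0.36, exact permutation test, 2-sided p = 0.786). That value also carries the gap between the experiments. Within them the log2 difference had the opposite sign, 1.83 in the serum and 0.14 in the contact experiment.

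Fragments of the 13 mRNAs were few, 311 reads in total. The 7 complex I genes (mt-Nd1 to mt-Nd6 with mt-Nd4l), subunits of NADH dehydrogenase, had 0 to 36 rpm per kilobase, the 3 complex IV genes (mt-Co1 to mt-Co3), subunits of cytochrome c oxidase, 0 to 16.5, the complex III gene mt-Cytb 0 to 52.2, and the 2 ATP synthase genes mt-Atp6 and mt-Atp8 0 to 63.9. The highest value was at 24 h for complexes I, III and IV and at 20 h for complex V. For complex IV that value was 10 reads of mt-Co1, all of which also matched a nuclear transcript. The 3 mRNAs with the highest mean share of mitochondrial reads, mt-Nd1, mt-Nd5 and mt-Co1, had 15, 16 and 10 reads at 24 h and none at 0 or 12 h. None of their reads began at base 1 or 2. The other 10 mRNA genes had 1 to 47 reads each, and mt-Nd2 had the 47. In contrast, 96.6% of the 29 reads of mt-Nd4l began at base 1, 15 of them at 0 h, where they were the only mRNA reads. Of the mRNA reads 41.8% also matched a nuclear transcript, against 0.700% of rRNA reads and no tRNA read, so the origin of those mRNA reads cannot be told apart. All reads of mt-Nd4l, mt-Co2, mt-Atp6, mt-Co3 and mt-Nd3 were of this kind, as were 26 of 35 reads of mt-Co1.

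The design sets quiescent (G0) cells against cycling cells. No pooled difference between the 3 G0 libraries and the other 5 exceeded the spread between libraries. The G0 group is contact days 3 and 5 with serum 0 h, and the permutation tests take no account of experiment. The pooled differences therefore also carry the gap between the experiments. The mitochondrial share was 0.0991% in G0 and 0.150% in the other libraries as geometric means (log2 difference -0.60, exact permutation test over 56 splits, 2-sided p = 0.536, adjusted over 5 values p = 0.670). For rRNA fragments the log2 difference was -0.79 (permutation p = 0.429), for mRNA fragments -1.64 (p = 0.286 by permutation) and for tRNA fragments 0.42 (permutation p = 0.679), with adjusted p of 0.670 to 0.679. Within the experiments the mean difference of the total had the other sign, 0.38 on the log2 scale in the serum and 0.32 in the contact experiment. Single ratios did not all share it. The total at 0 h was 1.03 to 1.60 times the released libraries, or 0.961 to 1.39 times with TMM scaling. Day 3 was 1.57 times day 0 (1.33 to 1.86) and day 5 was 0.996 times (0.833 to 1.19). With TMM scaling these were 1.14 and 0.806. For tRNA fragments 0 h was 1.24 to 3.84 times the released libraries, and days 3 and 5 were 3.01 and 4.67 times day 0. The same ratios for rRNA were 0.964 to 1.64, and 1.39 and 0.632. For mRNA 0 h was 0.122 to 0.424 times 16, 20 and 24 h, with no read at 12 h, and days 3 and 5 were 1.79 and 0.232 times day 0. The tRNA part of mitochondrial reads was 25.1% in G0 and 12.4% elsewhere (log2 difference 1.02, exact permutation p = 0.143, adjusted p = 0.670), with 0.54 within the serum experiment and 1.58 within the contact experiment. At 0 h 51.4% of the tRNA reads were 18 nt and 38.0% were 19 nt long. With inserts of at least 20 nt the tRNA part was 14.1% in G0 and 12.2% elsewhere (log2 difference 0.21), with -1.82 within the serum and 1.72 within the contact experiment. The smallest p of this design is 0.0357.

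The same question was asked gene by gene. In edgeR's quasi-likelihood test with experiment as a term, 0 of the 13 mitochondrial genes (of 37) that passed the filter of at least 10 CPM in 3 libraries had an adjusted p under 0.05, and 0 had an unadjusted p under 0.05. Among all 457 genes tested, 0.656% were called. DESeq2 also called 0 of 13, with 2 at an unadjusted p under 0.05. The G0 difference of mt-Rnr2 was -0.23 on the log2 scale (SE 0.51, edgeR adjusted p = 0.884), that of mt-Rnr1 1.06 (SE 0.77, edgeR adjusted p = 0.785) and that of mt-Tl1 0.07 (SE 1.99, edgeR adjusted p = 0.995). The median over the 13 genes was -0.23 and over all genes tested -0.32. The first of these rested on single libraries: it was 0.97 without serum 0 h (all genes -0.024) and -1.61 without contact day 0 (all genes -0.33). The interaction between G0 and experiment passed the same threshold for 0 of 13 mitochondrial genes, with 0 at an unadjusted p under 0.05, and for 0.219% of all genes in edgeR.

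Single libraries were then set side by side, with no test. Only mt-Rnr2 and mt-Rnr1 reached 100 reads in a serum library. At 0 h neither was at least 2-fold away from all 4 released libraries, where 4.44% of all genes were higher and 5.78% lower by that measure. mt-Rnr1 came closest, with 0 h above 12, 16, 20 and 24 h by 3.42, 4.47, 2.02 and 1.72 times; without the 24 h library it would count. mt-Rnr2 at 0 h was 1.07, 1.36, 0.823 and 1.60 times the level at 12, 16, 20 and 24 h. With a minimum of 20 reads, 3 of 10 mitochondrial genes exceeded all 4 released libraries at 0 h, against 12.1% of all genes, and 0 of 10 were below them all, against 4.26%. These were the tRNAs mt-Ts2, mt-Tf and the glutamine tRNA mt-Tq. At 0 h mt-Ts2 was 3.25-fold over 16 h, 5.95-fold over 20 h and 4.51-fold over 24 h. It had no read at 12 h, and with that 0 set to 3 reads the ratio was 14.9 (lower 95% limit 11.8). mt-Tf was 5.77-fold over 16 h and, with its 0 reads at 24 h set to 3, 11.8-fold over 24 h (lower 95% limit 9.33). mt-Tq had 26 reads at 0 h, 4 at 16 h and none at 12, 20 or 24 h. It passed the minimum of 20 reads only through 0 h, so it entered the count because it was high there. The 0 h reads of these tRNAs were 2, 1 and 1 distinct inserts. These ratios are of gene-matching reads only. CCA-ended reads of mt-Tf were at 812 rpm at 0 h, 560 rpm at 16 h and 94.5 to 207 rpm at 12, 20 and 24 h. Those of mt-Ts2 were at 24.8 rpm at 0 h and 9.33 rpm at 16 h, and mt-Tq had none at 0 h and 26.4 rpm at 20 h.

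In the contact experiment mt-Rnr2 was the one mitochondrial gene with 100 reads, at 1.18 times day 0 on day 3 (0.960 to 1.44) and 0.521 times on day 5 (0.407 to 0.666), so it did not count as changed, where 25% of all genes were higher and 4.17% lower. With TMM scaling these ratios were 0.855 and 0.422. With a minimum of 20 reads 1 of 3 mitochondrial genes was higher on both days, against 20.4% of all genes, and 0 of 3 were lower, against 5.09%. The higher one was mt-Ts2, by 4.41 times on day 3 (1.5 to 17.6) and 9.81 times on day 5 (3.61 to 37.4), from 4 reads at day 0. It passed the minimum of 20 reads only through days 3 and 5, so it entered the count because it was high there. The tRNA total gave 21, 79 and 130 reads at days 0, 3 and 5, or ratios to day 0 of 3.01 (1.84 to 5.14) and 4.67 (2.93 to 7.80). With the CCA-ended reads added, the tRNA ratios were 1.85 (1.43 to 2.42) and 1.79 (1.38 to 2.34), from 84, 194 and 199 reads. The rRNA ratios were 1.39 (1.16 to 1.68) and 0.632 (0.508 to 0.787). The mRNA ratios were 1.79 (0.901 to 3.75) and 0.232 (0.0552 to 0.752), from 13, 29 and 4 reads. Under TMM scaling the ratios were 2.19 and 3.78 for tRNA without CCA-ended reads, 1.35 and 1.45 with them, and 1.01 and 0.512 for rRNA.

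Among the 4 released libraries, where the labels follow cells from G1 through S and G2/M to the next G1, 1 of the 2 genes with 100 reads differed at least 2-fold between its highest and lowest library, mt-Rnr1 (24 h over 16 h, 2.60 times, 1.88 to 3.56), against 69.4% of all genes. With a minimum of 20 reads this held for 8 of 9, against 80% of all genes. The tRNA total without CCA-ended reads was lowest at 20 h, with 34 reads, and 0 h exceeded it 3.84 times (2.65 to 5.72). With CCA-ended reads added, 0 h was 3.52 times 20 h and 3.74 times 24 h. The mRNA total was 0, 97.5, 253 and 338 rpm at 12, 16, 20 and 24 h, with 1 library at each time.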

How the data were processed

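Each deposited file lists, per the file contents and without a header, distinct 36-nt reads and whole-number counts of each, which the values show are not normalized; library preparation, per the labels' protocols, followed an earlier publication, and the authors' read filters, aligner and build were not given in the sources used here. The 3′ adapter (at least 6 bases seen) was trimmed, reads sharing 12 bases or at most 3 edits with the 18-nt and 30-nt marker oligonucleotides were dropped, and inserts of 18 to 30 nt were matched exactly to GENCODE M21 transcripts (GRCm38) on the sense strand. Inserts in miRNA hairpins were left out. The reference is of the strain C57BL/6J and the line is not, so inserts at bases where the mitochondrial sequences differ would not be counted; with 1 mismatch allowed the G0 geometric mean of the tRNA share went from 0.0249% to 0.0388%. The mitochondrial genes, lists and alternatives were chosen with earlier results of these data known. Shares are of kept reads. Binomial intervals are exact (Clopper-Pearson), ratio intervals conditional binomial, and a count of 0 was set to 3 reads per library in ratios and logs.

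Tests were exact permutation tests (scipy 1.17.1) with Benjamini-Hochberg adjustment over 5 values, and edgeR 4.0.16 quasi-likelihood fits over all genes (TMM, at least 10 CPM in 3 libraries), with DESeq2 1.42.0 as an alternative; the edgeR script was tested on simulated data. P-values measure the spread between these 8 libraries, each a condition of its own. Named are the 10 genes with the highest mean share of mitochondrial reads, genes past the threshold, up to 5 per direction in each comparison of single libraries, and the 12 leading fragments. The muscle hairpins (3 of 5 detected, Mir133a-1 and Mir133a-2 at 0) summed to 69.6 to 625 per 1000000 hairpin reads, the neural (3 of 3) to 0 to 56.2 and the liver hairpin to 0 to 4.49.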

Additional observations from a re-analysis of the deposited data

Results flagged for a closer look

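Among the 5 libraries not labelled G0, 3 of 15 values examined had 1 library far from the others by Dixon's ratio of gap to range. For mt-Tf the ratio was 0.780, with 30.5 rpm at 16 h and at most 6.73 rpm in the other 4. For mt-Tp it was 0.911, with 56 rpm at 16 h and at most 4.97 rpm elsewhere. For mt-Nd5 it was 0.716, with 79.6 rpm at 24 h and at most 22.6 rpm elsewhere. Chance flags about 1 in 20 groups of normally distributed values. These values are shares from low counts with zeros, so the rate for them is not known.

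Reads outside the counting rule were also present. Reads with an added CCA numbered 3119. Antisense reads to mitochondrial genes numbered 278 (111 distinct inserts, 27 genes), or 2.56% to 13.7% of the sense reads of a library, most often to mt-Co2 (64 reads, 56 of them in 1 library). Reads that crossed a gene boundary numbered 520 in 19 distinct inserts. Nearly all were mt-Rnr2 3′ ends that went on by 1 base, an A that is also the first base of mt-Tl1, with 16, 127, 255, 46 and 23 reads in the serum libraries and 15, 9 and 3 in the contact libraries. Whether that A was encoded or added cannot be told apart. Reads with added A that the genome does not encode numbered 206, of which mt-Rnr2 had 107 and mt-Rnr1 88.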

How the results depend on the processing

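No share test passed its threshold in any alternative run, but these tests say nothing about stability: 1 value alone at the smallest p of 0.0357 has an adjusted p of 0.179, and with 1 library left out p cannot go below 0.0571 or, for a G0 library, 0.0952. With 1 mismatch allowed the tRNA part (1.09) had a permutation p of 0.0357; the total was then -0.47, tRNA 0.62, rRNA -0.75 and mRNA -1.44. The G0 difference of the total share turned from -0.60 to 0.61, and that of rRNA from -0.79 to 0.50, when distinct inserts replaced reads. The tRNA difference of 0.42 became -0.76 with inserts of at least 20 nt and -0.027 with CCA-ended reads, and -0.071 to 0.83 when 1 library was left out (negative without serum 0 h or without contact day 0). With 1 library left out the total ranged from -1.29 to -0.089 and rRNA from -1.59 to -0.11 (each without serum 0 h and without contact day 5), mRNA from -2.35 (without 12 h) to -0.71 (without day 5), mt-Rnr2 from -0.66 to 0.10 (positive without contact day 0) and mt-Tl1 from -1.61 to 2.21; without the experiment term mt-Tl1 was -1.08. The causes were not tested.

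Genes counted at 0 h were 0 with 100 reads and 3 with 20 reads (mt-Tq among them past the minimum only through 0 h). They were 0 to 1 when 1 library was left out (1, mt-Rnr1, without 24 h). For the contact days they were 0 and 1. Among released libraries they were 1 with 100 reads, 8 of 9 with 20 reads (80% of all genes), 0 with 500 reads, and 0 to 1 when 1 library was left out (0 without 16 h, which left 1 gene). Over all genes edgeR called 3 with TMM, 9 with DESeq2 size factors, 0 of 5848 without a filter, 1 without the experiment term and 1 to 9 with 1 library left out, and DESeq2 called 13; the mitochondrial count was 0 each time. Leaving out inserts that match a nuclear chromosome was not run, since no genome sequence was used here; leaving out those that match a nuclear transcript, chosen after seeing the data, moved the mRNA difference from -1.64 to -2.61. Of the contact comparison no gene had 500 reads, and leaving out 0 h or day 0 leaves nothing to compare. No paired analysis was possible because the labels give no replicate numbers and each condition is 1 library. Depth limits the single tRNA and mRNA genes: 3 reads were 2.54 to 14.9 rpm according to library.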
